A study of Mus musculus with 18 samples.

Results

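The Slc25 genes encode the mitochondrial carriers, and 47 of the 55471 gene IDs in the oocyte tables mapped to a mouse symbol of the form Slc25a followed by a number. These 47 rows were the members. Uncoupling protein genes (Ucp) and Mtch genes belong to the same family by sequence but carry other symbols, so they were set beside the members and not counted among them. They were described in mature, ovulation-stage eggs (MII oocytes). There were 3 messenger RNA libraries labelled Isca2 -/- (KO), set against 3 labelled wild type (WT). The series is titled for iron metabolism and for the interaction of ISCA2, which helps to assemble iron-sulfur clusters in mitochondria, with the TET enzymes. The labels gave no strain, age, allele design or number of oocytes per library for these samples. Nothing in them tied replicates to separate animals, so p-values measured the spread between these libraries, which may be technical.

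Mitochondrial carriers are small membrane proteins that move metabolites, nucleotides, phosphate, cofactors and metal across the inner mitochondrial membrane, usually by exchanging one solute for another. A few members sit elsewhere, on peroxisomes or in the outer mitochondrial membrane. MII oocytes hold many mitochondria and store messenger RNA for the embryo, and they do not transcribe, so an oocyte transcript measured here is a stored one. Markers of other cell types were also found in these libraries (below), so each level is that of the library. Iron enters the mitochondrial matrix through mitoferrin 1 (Slc25a37) and mitoferrin 2 (Slc25a28), where it is used to build iron-sulfur clusters and heme.

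Each library held between 17792157 and 30240350 expected counts. WT replicate 3 stood apart. Across genes its Pearson correlations with the other 5 libraries (log2 of scaled counts plus 1) lay between 0.928 and 0.937, while every other library reached at least 0.988 with another. A list of 10 macrophage and leukocyte markers summed to 5.73, 6.44 and 9.92 TPM (transcripts scaled to a common library total) in the libraries labelled KO and to 6.26, 4.56 and 1140 TPM in WT replicates 1, 2 and 3, and all 10 markers were highest in WT replicate 3. The 10 oocyte markers summed to between 11523 and 12849 TPM in the libraries labelled KO and to between 11680 and 14283 TPM in the WT libraries, and none was at 0. Oosp1 alone had a mean of 6431 TPM, and 7 of the 10 were highest in WT replicate 3. That library was the highest for 37.5% of the 12210 genes with a mean of at least 1 TPM. In the edgeR fit described below, 3 oocyte markers were lower and 0 higher at an unadjusted p under 0.05, against 3.3% and 2.89% of all genes. Without WT replicate 3 these were 3 and 1, against 3.89% and 7.68% of all genes, and 0 oocyte markers were called in either fit. The 12 granulosa and cumulus markers summed to 40.5, 64.4 and 101 TPM in the libraries labelled KO, against 47.5, 37.6 and 44.7 TPM in the WT libraries. In the edgeR fits 7 of them were tested, with 6 positive and 1 negative in each fit. Their median log2 fold change (KO over WT) was 2.75 with 6 libraries and 3.49 without WT replicate 3. With 6 libraries 0 were called. Without WT replicate 3, 1 was called higher (adjusted p = 0.026, edgeR), against 0.574% of all genes. Isca2 had 53, 56 and 120 expected counts in the libraries labelled KO, against 14, 11 and 152 in WT replicates 1, 2 and 3. It was therefore not lower under the KO label, and every direction below is between libraries as labelled. The part of the gene that was deleted is not given in the labels, so reads outside it may still be counted.

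The carriers spanned a wide range of oocyte levels. The mean deposited TPM, a level per transcript length, was at least 100 for 2 carriers, between 10 and 100 for 13, between 1 and 10 for 15 and below 1 for 17. At least 1 TPM was thus reached by 63.8% of the carriers, against 22% of all gene IDs. The 6 highest carriers made up between 72.8% and 75.5% of the summed carrier TPM in each library. All carriers together summed to 956, 1044 and 1100 TPM in the libraries labelled KO, against 1114, 1030 and 1194 TPM in the WT libraries, so the groups overlapped. The order changed little with the unit: FPKM and expected counts per effective length gave no carrier another rank. Leaving out WT replicate 3 kept 11 of the 12 highest and moved no carrier by more than 6 places.

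**Figure D1:**
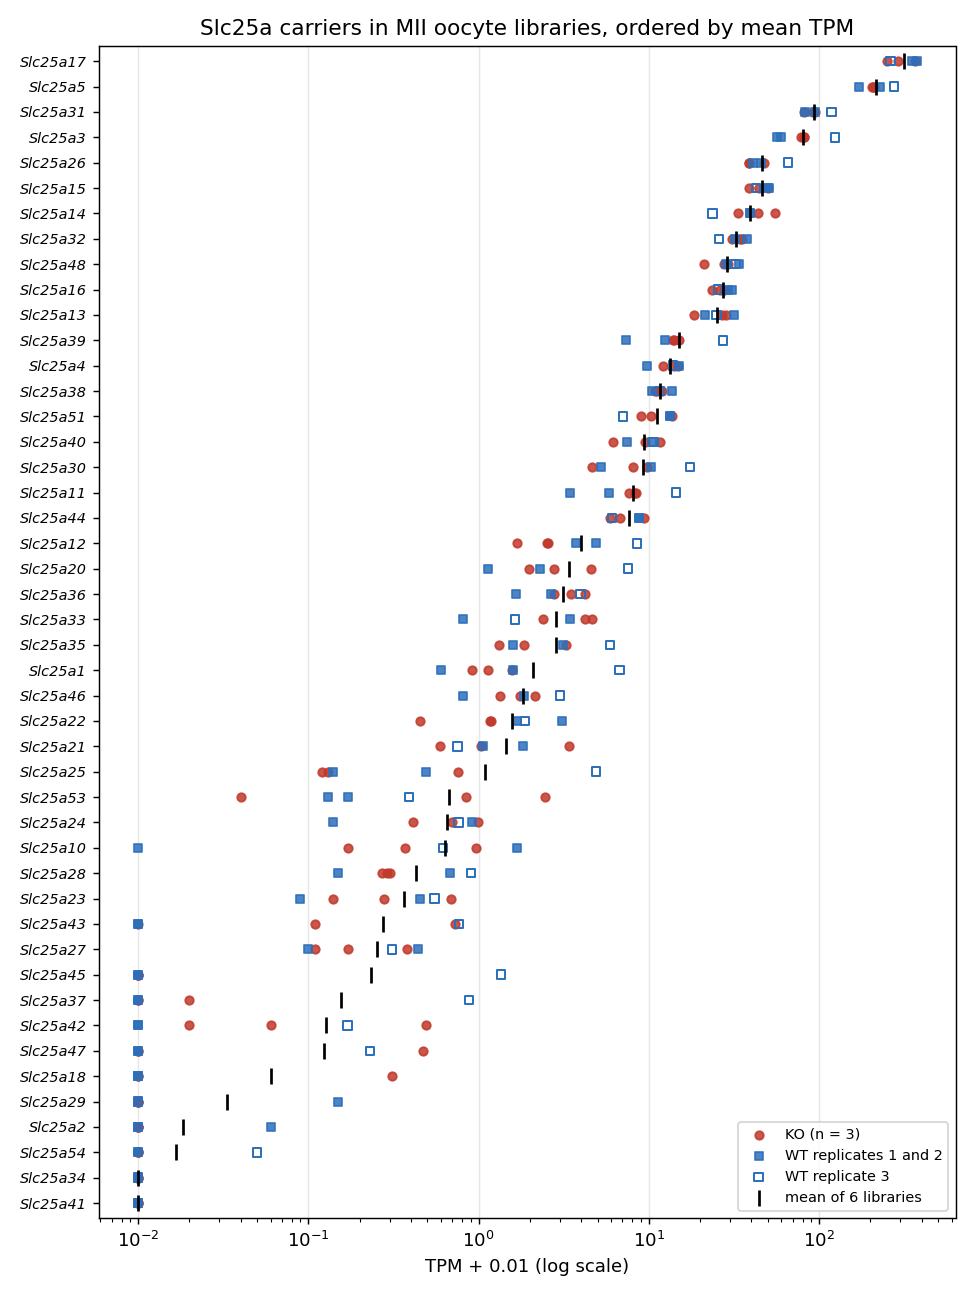
TPM plus 0.01 on a log axis for 46 carriers in each of the 6 libraries, ordered by mean TPM, with a bar at the mean. Slc25a17 and Slc25a5 lay above 100 TPM in every library, while Slc25a28 lay below 1 TPM in all 6 and Slc25a37 came near 1 TPM in WT replicate 3 alone.

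The highest carrier was Slc25a17, whose product is the peroxisomal member that transports coenzyme A and related cofactors. It lies on chromosome 15 (81318921 to 81360765, GRCm38.p6). It had 252, 290 and 364 TPM in the libraries labelled KO, against 350, 374 and 262 TPM in WT replicates 1, 2 and 3. Its mean was 315 ± 53.8 TPM (SD, n = 6), and 500 of all gene IDs had a higher mean. The 2 groups overlapped across this range. Mitoferrin 2, Slc25a28 (chromosome 19, 43663801 to 43675006), lay far lower, with a mean of 0.42 ± 0.29 TPM (SD, n = 6) and rank 34 of the 47. The RefSeq promoter windows of this pair, each with 250 bases before and 50 after the start and with every CG dinucleotide in capitals, are printed to set the highest carrier beside a mitoferrin. The windows are chr15:81360716-81361015 and chr19:43674832-43675131, minus strand, GRCm38.p6. On these coordinates the start used for Slc25a28 lay inside the gene span given above, and that for Slc25a17 at the end of its span.
Slc25a17: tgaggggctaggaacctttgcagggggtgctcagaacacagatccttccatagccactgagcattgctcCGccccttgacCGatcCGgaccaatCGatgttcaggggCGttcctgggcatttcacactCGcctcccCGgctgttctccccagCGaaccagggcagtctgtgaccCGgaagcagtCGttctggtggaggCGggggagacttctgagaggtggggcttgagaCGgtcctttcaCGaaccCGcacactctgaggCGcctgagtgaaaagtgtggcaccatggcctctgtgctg
Slc25a28: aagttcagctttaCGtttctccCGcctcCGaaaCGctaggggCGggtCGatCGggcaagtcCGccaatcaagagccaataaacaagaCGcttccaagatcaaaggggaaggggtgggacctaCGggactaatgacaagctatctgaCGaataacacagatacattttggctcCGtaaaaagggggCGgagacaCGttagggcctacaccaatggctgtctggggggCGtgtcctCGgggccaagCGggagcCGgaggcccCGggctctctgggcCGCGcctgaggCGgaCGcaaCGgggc
The Slc25a17 window held 15 CG and the Slc25a28 window 24, so the carrier with the lower level had the larger number. A RefSeq window was listed for 36 of the 47 carriers, and the first one listed was used where there were several. The median was 22 CG (range 4 to 47) in the 23 windows of carriers with at least 1 TPM and 15 CG (range 1 to 32) in the 13 windows of carriers below 1 TPM. At least 10 CG were found in 20 of those 23 and in 9 of those 13, against 43.9% of the 27025 genes with a window. CG reads the same on both strands. Over the 36 carriers Spearman's rho between CG number and mean TPM was 0.27, a description over genes that share the same libraries.

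Both iron carriers were close to absent from the oocyte libraries. Slc25a28 had 5, 4 and 5 expected counts in the libraries labelled KO, against 15, 3 and 20 in WT replicates 1, 2 and 3. In TPM these were 0.29, 0.28 and 0.26, against 0.67, 0.14 and 0.89, so the groups overlapped and the lowest library was a WT one. Slc25a37 (chromosome 14, 69241848 to 69285544), the mitoferrin best known from red blood cell precursors, had 0, 0 and 1 expected counts in the libraries labelled KO, against 0, 0 and 78.79 in WT replicates 1, 2 and 3. Its level was 0.87 TPM in WT replicate 3 and at most 0.01 TPM in the other 5 libraries. A count of 0 allows up to 3 counts in a library, for counting error only. Of 9 erythroid markers in the tables, Klf1 and Slc4a1 were among those at 0 in all 6 libraries, and the list summed to between 3.36 and 5.40 TPM under the KO label and to 3.01, 2.34 and 7.78 TPM in WT. The part of the macrophage and leukocyte transcripts of WT replicate 3 in its Slc25a37 level was not tested.

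Neither mitoferrin passed the count filter (filterByExpr), with or without WT replicate 3, so no genotype test of them was made in those fits. With no filter, Slc25a28 had a log2 fold change (KO over WT) of -1.25 (SE 1.15, adjusted p = 0.715, edgeR). The fit of the other 5 libraries gave -0.95 (SE 1.58, adjusted p = 0.854). The Slc25a37 difference rested on 1 library, and without it both groups lay under the floor of 3 counts in every library, so no fold is given. At this depth a genotype difference in either mitoferrin was not detectable.

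The glutathione carriers stood well above the mitoferrins. Slc25a39 and Slc25a40 encode related carriers that bring glutathione into mitochondria. Slc25a39 had 13.9, 14.1 and 15.1 TPM in the libraries labelled KO, against 12.4, 7.32 and 27.3 TPM in WT replicates 1, 2 and 3. The 3 libraries labelled KO lay close together, inside the much wider WT range. Slc25a40 had 11.7, 9.46 and 6.11 TPM under the KO label, against 7.48, 10.5 and 10.7 TPM in WT. Slc25a39 was the higher of the pair in 5 of 6 libraries (ratio 0.70 to 2.57), so their order was not the same in every library.

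Carriers of adenine nucleotides and phosphate, which supply the matrix with ADP and phosphate and export ATP, had 4 of their 8 members above 10 TPM. Slc25a5, the adenine nucleotide translocase of growing and dividing cells (X chromosome, 36795597 to 36798808), had 208, 206 and 211 TPM in the libraries labelled KO, against 229, 172 and 275 TPM in WT. Slc25a31, the germ cell translocase needed for male meiosis in mice (chromosome 3, 40708871 to 40726094), had 92.2, 94.4 and 81.1 TPM, against 94.4, 82.9 and 118 TPM in WT. Slc25a4, the heart and muscle translocase, had 14.1, 14.7 and 12.1 TPM, against 15.02, 9.77 and 13.9 TPM in WT. The order Slc25a5, Slc25a31, Slc25a4 held in all 6 libraries. Slc25a5 was 2.08 to 2.6 times Slc25a31 and 13.9 to 19.9 times Slc25a4, and the genotypes overlapped for all 3.

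Slc25a3, the phosphate carrier (chromosome 10, 91116574 to 91124046), had 78.7, 81.9 and 81.5 TPM in the libraries labelled KO, against 60.1, 56.7 and 124 TPM in WT. The libraries labelled KO lay above WT replicates 1 and 2 and below WT replicate 3. The calcium-regulated carriers of ATP-Mg and phosphate were low. Slc25a24 had 0.40, 0.98 and 0.69 TPM under the KO label, against 0.13, 0.90 and 0.75 TPM in WT. Slc25a23 had 0.27, 0.68 and 0.13 TPM, against 0.44, 0.08 and 0.54 TPM in WT. Slc25a25 had 0.11, 0.12 and 0.75 TPM, against 0.48, 0.13 and 4.88 TPM in WT. The libraries overlapped between genotypes for these carriers, and Slc25a41, of the same set, was at 0 in all 6.

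**Figure D2:**
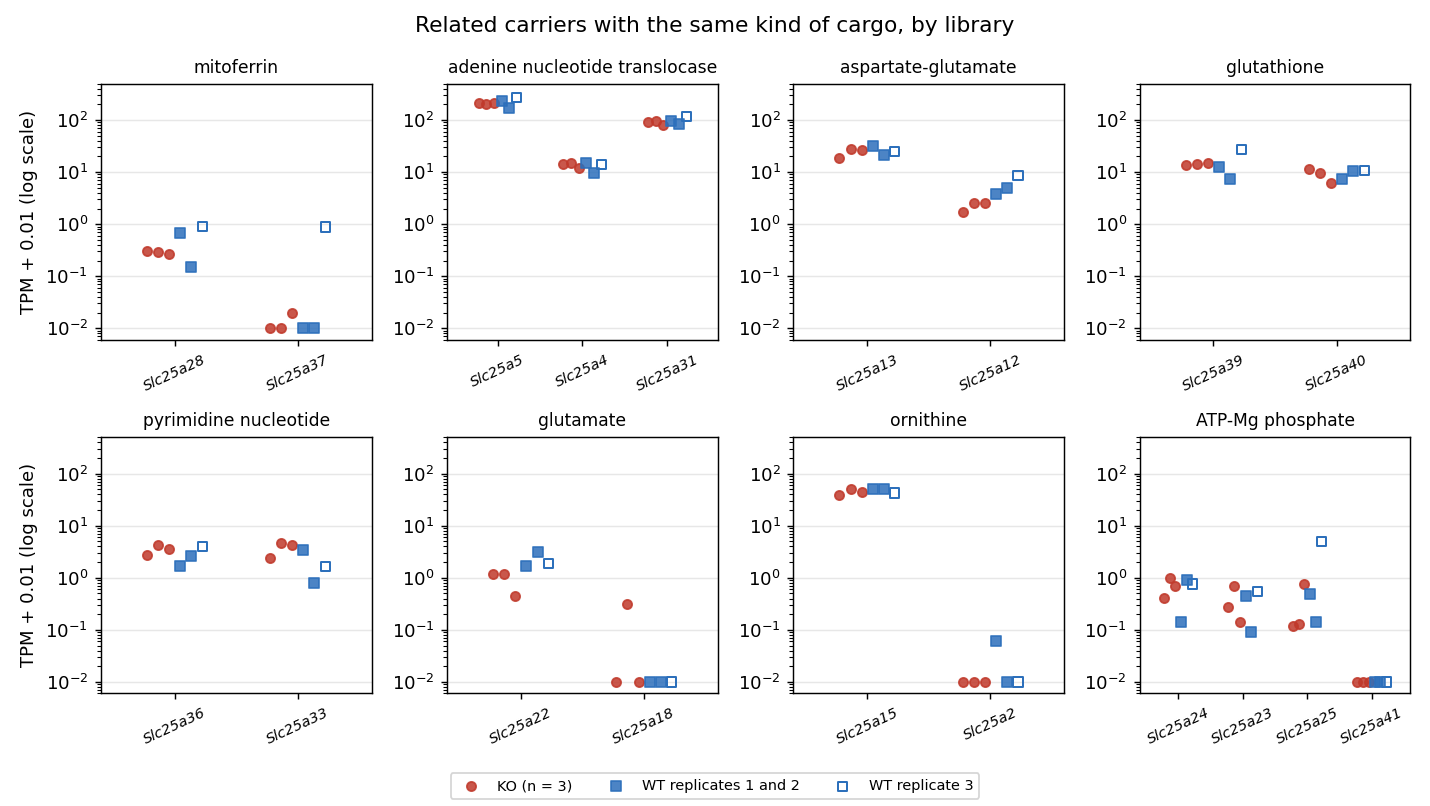
TPM plus 0.01 on a log axis in each library for 8 sets of related carriers, one panel per set. The translocases kept the order Slc25a5, Slc25a31, Slc25a4 in all 6 libraries, Slc25a15 and Slc25a13 lay above their relatives in all 6, and the pyrimidine nucleotide pair had no fixed order.

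Of the 9 carriers of other nucleotides and cofactors, 8 reached 1 TPM and 5 reached 10 TPM. Slc25a26, which imports the methyl donor S-adenosylmethionine, had 47.6, 39.0 and 38.9 TPM in the libraries labelled KO, against 45.4, 41.1 and 65.5 TPM in WT. Slc25a32, the folate and FAD carrier, had 31.0, 35.3 and 34.5 TPM, against 32.1, 37.5 and 25.9 TPM in WT. Slc25a16 had 23.6, 27.6 and 26.2 TPM, against 30.8, 29.1 and 25.4 TPM in WT. Its spread over the 6 libraries, with a coefficient of variation of 9.51%, was the smallest of the 47. The median coefficient of variation was 15.7% over the 15 carriers of at least 10 TPM and 16.1% over the 5943 genes of at least 10 TPM.

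Lower members of the cofactor group included Slc25a51, the NAD carrier, at 9.04, 10.3 and 13.7 TPM in the libraries labelled KO, against 13.3, 13.3 and 7.04 TPM in WT. The groups overlapped. The pyrimidine nucleotide carriers Slc25a36 and Slc25a33 were alike in level. Slc25a36 had 2.76, 4.22 and 3.50 TPM, against 1.66, 2.64 and 3.96 TPM in WT. Slc25a33 had 2.38, 4.65 and 4.20 TPM, against 3.44, 0.80 and 1.63 TPM in WT. Slc25a36 was the higher of the pair in 3 of 6 libraries, so neither was the leading member. Slc25a42, a coenzyme A carrier, had a mean of 0.12 TPM.

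Amino acid carriers were led by Slc25a15, the ornithine carrier of the urea cycle. It had 38.7, 49.9 and 44.4 TPM in the libraries labelled KO, against 50.8, 50.4 and 42.6 TPM in WT. Its relative Slc25a2 was at 0 in 5 libraries and had 0.05 TPM in WT replicate 1. Slc25a38, which imports glycine for heme synthesis, had a mean of 11.6 ± 1.13 TPM (SD, n = 6). Its libraries labelled KO averaged 11.3 ± 0.54 TPM and the WT libraries 11.9 ± 1.63 TPM (SD, n = 3 each). Slc25a44, a carrier of branched-chain amino acids, had a mean of 7.59 ± 1.51 TPM (SD, n = 6). Slc25a29, a carrier of basic amino acids, was above 0 in WT replicate 2 alone, at 0.14 TPM.

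The glutamate carrier Slc25a22 had 1.15, 1.17 and 0.44 TPM in the libraries labelled KO, against 1.67, 3.10 and 1.87 TPM in WT, and the highest value under the KO label was below the lowest in WT on this scale. In CPM the groups overlapped. Its relative Slc25a18 was at 0 in 5 libraries and had 0.30 TPM in KO replicate 2. The aspartate-glutamate carriers, which belong to the shuttle that brings reducing equivalents into mitochondria, were unequal. Slc25a13 had 18.4, 28.4 and 26.9 TPM, against 31.8, 21.4 and 24.9 TPM in WT. Slc25a12 had 1.67, 2.56 and 2.51 TPM, against 3.71, 4.86 and 8.52 TPM in WT. Slc25a13 was higher in all 6 libraries, by 10.99, 11.1 and 10.7 times under the KO label and by 8.56, 4.39 and 2.93 times in WT.

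None of the 5 carboxylate and fatty acid carriers reached 10 TPM. Slc25a11, the oxoglutarate-malate carrier, had 7.59, 8.32 and 8.45 TPM in the libraries labelled KO, against 5.83, 3.45 and 14.4 TPM in WT. Slc25a20, which brings acylcarnitines in for fatty acid oxidation, had 1.97, 4.54 and 2.78 TPM, against 2.27, 1.12 and 7.53 TPM in WT. Slc25a1, the citrate carrier, had 1.12, 1.57 and 0.90 TPM, against 1.59, 0.59 and 6.71 TPM in WT. In all 3 of these the highest library was WT replicate 3. The dicarboxylate carrier Slc25a10 and the oxodicarboxylate carrier Slc25a21 had means of 0.63 and 1.44 TPM.

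The remaining 12 members include relatives of the uncoupling proteins and members of little known cargo. Slc25a14, an uncoupling protein relative on the X chromosome, had 33.3, 43.5 and 54.9 TPM in the libraries labelled KO, against 39.4, 39.4 and 23.6 TPM in WT. Slc25a48, whose human form has been linked to choline, had 29.2, 27.6 and 21.0 TPM, against 33.7, 28.4 and 32.3 TPM in WT. The genotypes overlapped for both in TPM. Slc25a30, another uncoupling protein relative, had 4.65, 9.74 and 8.10 TPM, against 10.3, 5.20 and 17.4 TPM in WT, with WT replicate 3 the highest. Slc25a46, a shaping factor of the outer mitochondrial membrane, and Slc25a35 had means of 1.81 and 2.84 TPM. Slc25a53, Slc25a43, Slc25a27, Slc25a45 and Slc25a47 had means of 0.66, 0.26, 0.24, 0.22 and 0.11 TPM, and Slc25a54 had a value above 0 in WT replicate 3 alone. Slc25a34, like Slc25a41, was at 0 in all 6 libraries.

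Neighbours in the order often did not differ beyond their spread. Slc25a17 exceeded Slc25a5 in 5 of 6 libraries and by more than the larger SD of the pair, and Slc25a5 exceeded Slc25a31 in 6 of 6. Slc25a31 and Slc25a3 were closer than the larger SD, with Slc25a31 higher in 4 of 6 libraries. Slc25a3 lay above Slc25a26 in 6 of 6. From Slc25a26 down to Slc25a13, and again from Slc25a39 down to Slc25a44, each carrier and the next were closer than the larger SD, so the order within those stretches is not settled by these libraries.

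WT replicate 3 was the highest of the 6 libraries for 19 of the 47 carriers and the lowest for 3, in TPM. Among the 30 carriers with a mean of at least 1 TPM it was the highest for 14 (46.7%), against 37.5% of the 12210 genes at that level, and the lowest for 3 (10%), against 18%. Slc25a45 had 57 expected counts there and 0 in the other 5 libraries. Slc25a25 was 16 times the mean of WT replicates 1 and 2, Slc25a1 6.16 times, Slc25a20 4.44 times and Slc25a39 2.78 times. The 3 carriers lowest there were Slc25a14, Slc25a32 and Slc25a51. The macrophage and leukocyte markers summed to 1140 TPM in this library and to at most 9.92 TPM elsewhere. Their part in these carrier levels was not tested. In bulk libraries fewer cells of a type and less RNA per cell cannot be told apart.

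**Figure D3:**
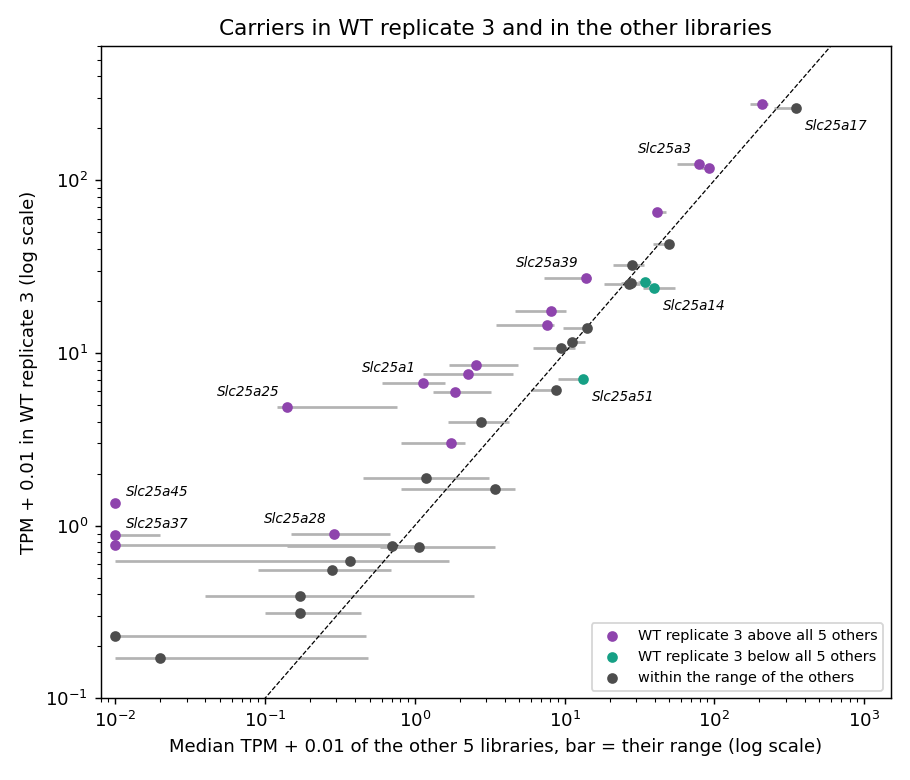
TPM plus 0.01 in WT replicate 3 against the median of the other 5 libraries, on log axes, for 40 carriers with at least 0.1 TPM in WT replicate 3, with bars for the range of the other 5 and a dashed line of equality. Slc25a45, Slc25a37 and Slc25a43, each with a median of 0 in the other 5, lie farthest above the line, and Slc25a14 and Slc25a51 lie below it.

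No carrier passed the genotype test in the 6 libraries. Of the 47, 34 passed the count filter, and 0 were called higher or lower at an adjusted p under 0.05 (edgeR quasi-likelihood test, Benjamini-Hochberg over all genes tested). Of all 13680 genes tested, 0% were called higher and 0.0146% lower. At an unadjusted p under 0.05, 0 carriers were higher and 2 lower, against 2.89% and 3.3% of all genes (6.19% in either direction). A further test by DESeq2 and one by limma-voom called 0 carriers as well. The carriers had a median log2 fold change of KO over WT of -0.02, with 16 positive and 18 negative, while all genes had a median of -0.04 with 45.4% positive. In CPM, the counts scaled by library sizes adjusted with the trimmed mean of M values (TMM), 1 of the 34 had every library labelled KO above every WT library and 3 had them below, against 6.48% and 5.96% of all genes. The one above was Slc25a16, with 53.5, 57.2 and 54.2 CPM in the libraries labelled KO, against 51.8, 50.7 and 50.01 CPM in WT. Its TPM values overlapped. Slc25a48, one of those below, had 72.4, 68.4 and 56.7 CPM under the KO label, while the WT libraries had 81.1, 72.7 and 73.2 CPM. Both differences were small, at 0.11 (SE 0.11) and -0.20 (SE 0.13) on the log2 scale.

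The abundant carriers were the best measured. For 14 of the 15 carriers with at least 10 TPM the 95% interval of the difference lay within 2-fold in either direction, and for 16 of all 34 tested. For these 15 the values ranged from -0.20 to 0.49. Slc25a17 had -0.03 (95% interval -0.58 to 0.52), Slc25a5 had -0.01 (-0.34 to 0.32) and Slc25a31 had -0.05 (-0.33 to 0.24). These libraries are compatible with any difference inside those intervals.

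Slc25a12 had the smallest p of the family in the 6 libraries. It had 2.54, 2.91 and 4.20 CPM in the libraries labelled KO, against 4.86, 7.05 and 11.8 CPM in WT replicates 1, 2 and 3. Every library labelled KO lay below every WT library. It did not pass the test in edgeR (log2 fold change -1.29, SE 0.42, adjusted p = 0.766), nor in the fit without WT replicate 3 (-0.88, SE 0.37, adjusted p = 0.391). Its relative Slc25a13 had 0.15 (SE 0.26) with all 6 libraries and 0.05 (SE 0.25) without WT replicate 3.

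With WT replicate 3 left out no carrier passed the edgeR test either, and the family's leading values changed. Of 34 carriers tested, 0 were called, against 0.574% of all 14122 genes called higher and 0.0779% called lower (0.651% in either direction). At an unadjusted p under 0.05, 4 carriers were higher and 1 lower, against 7.68% and 3.89% of all genes (11.6% in either direction). In CPM 6 carriers had every library labelled KO above both WT libraries and 3 had them below, against 15.4% and 13.1% of all genes. The median log2 fold change was 0.05 (18 positive, 16 negative), beside 0.01 and 51.5% positive for all genes. The sign of the log2 fold change differed from the fit of 6 libraries for 10 of the 34 carriers.

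The phosphate carrier Slc25a3 had the smallest p without WT replicate 3. It had 83.0, 84.5 and 95.3 CPM in the libraries labelled KO, against 61.6 and 63.3 CPM in WT replicates 1 and 2, with 120 CPM in WT replicate 3. That library left out, edgeR gave a log2 difference of 0.49 (SE 0.12, 95% interval 0.21 to 0.77, adjusted p = 0.142), and DESeq2 gave 0.49 with an adjusted p of 0.017. With all 6 libraries it was 0.10 (SE 0.26, adjusted p = 0.946). The libraries labelled KO were higher than WT replicates 1 and 2, and WT replicate 3 was higher still.

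Beside Slc25a3, the carriers higher at an unadjusted p under 0.05 in that fit were Slc25a11, Slc25a36 and Slc25a39, and the 1 lower was Slc25a12, described above. Slc25a11 had 7.49, 8.40 and 10.1 CPM in the libraries labelled KO, against 5.70, 4.13 and 14.2 CPM in WT replicates 1, 2 and 3, and edgeR gave a log2 difference without WT replicate 3 of 0.82 (SE 0.30, adjusted p = 0.326). Slc25a36 had 10.6, 11.4 and 13.0 CPM, against 6.31, 8.75 and 13.4 CPM, with 0.63 (SE 0.27, adjusted p = 0.394). Slc25a39 had 15.9, 16.1 and 18.5 CPM, against 13.6, 8.61 and 27.8 CPM, with 0.60 (SE 0.25, adjusted p = 0.395). In CPM Slc25a11, Slc25a36 and Slc25a39 showed the arrangement of Slc25a3, with the libraries labelled KO above WT replicates 1 and 2 and below WT replicate 3. They were picked by their p against WT replicates 1 and 2, so lying above those libraries largely follows from the choice. In TPM Slc25a36 was higher in KO replicate 2 (4.22) than in WT replicate 3 (3.96). With all 6 libraries the log2 fold changes of Slc25a11, Slc25a36 and Slc25a39 were 0.11, 0.30 and 0.01.

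**Figure D4:**
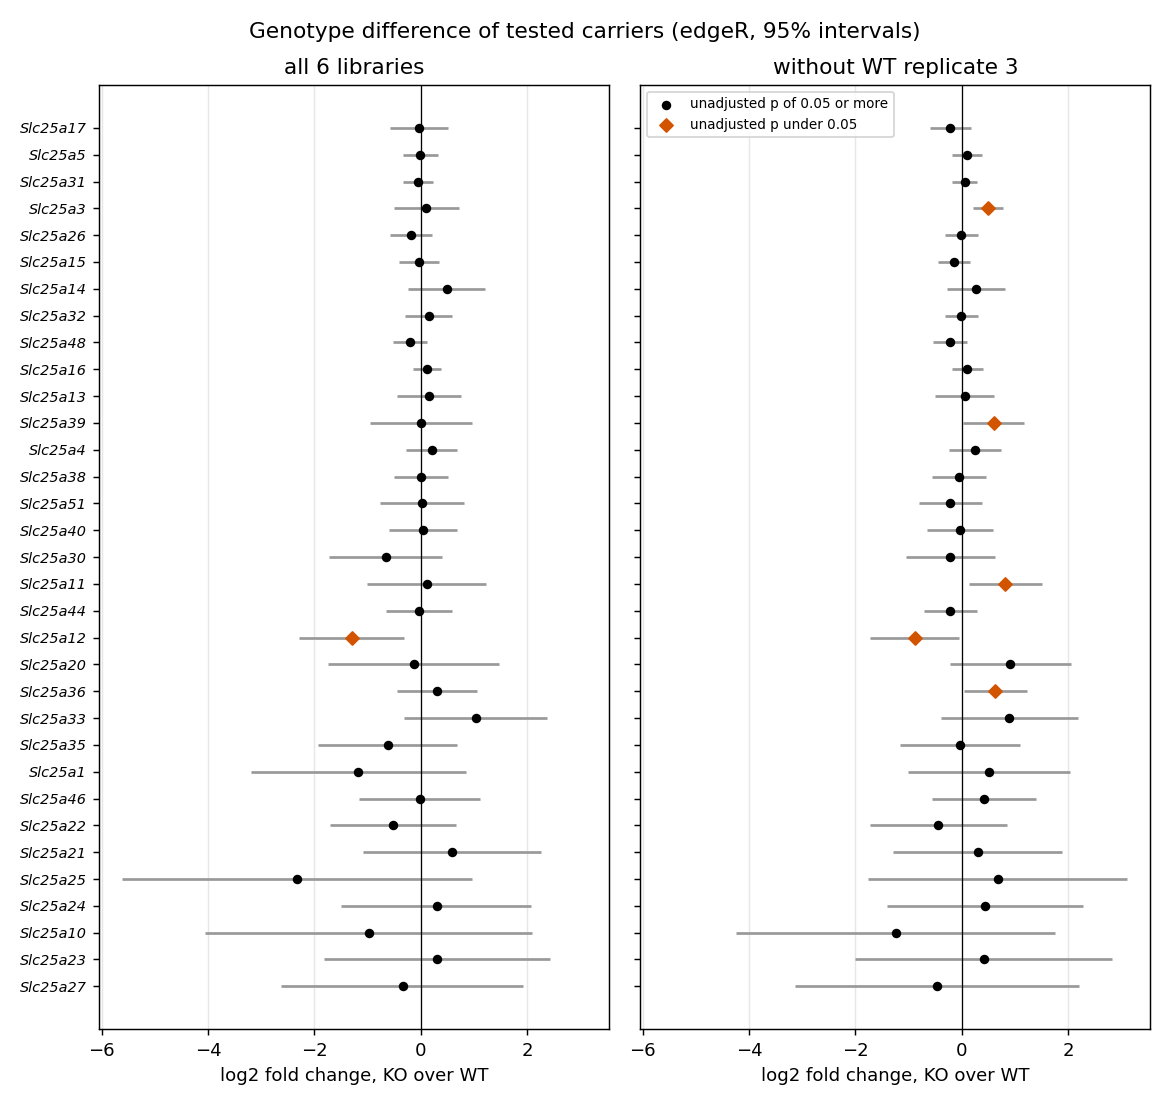
Log2 fold change of KO over WT with its 95% interval (edgeR) for 33 of the tested carriers, ordered by mean TPM, with all 6 libraries on the left and without WT replicate 3 on the right. Diamonds mark an unadjusted p under 0.05: Slc25a12 on the left, and Slc25a3, Slc25a39, Slc25a11, Slc25a36 and Slc25a12 on the right.

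By cargo, no group of carriers had a member called in either fit. The 7 tested carriers of adenine nucleotides and phosphate had a median log2 fold change of 0.10 with 6 libraries and 0.41 without WT replicate 3, when all 7 were positive. All genes then had a median of 0.01 with 51.5% positive. The 0.41 was the value of Slc25a23 (SE 1.07), a carrier below 1 TPM in every library. Slc25a24 and Slc25a25 were also low (SE 0.82 and 1.08), and the abundant Slc25a5 and Slc25a31 had 0.10 and 0.05. The 5 carboxylate and fatty acid carriers had medians of -0.13 and 0.51, and the 6 tested amino acid carriers -0.03 and -0.18. The 8 tested carriers of other nucleotides and cofactors had 0.07 and -0.01, and both glutathione carriers together had 0.02 and 0.28. The 6 tested members among the uncoupling protein relatives and others had -0.27, with 5 of 6 negative, and -0.13.

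Carriers under other names were measured as well. Ucp2, an uncoupling protein of the same family that is well known from immune cells, had 24, 124 and 122.73 expected counts in the libraries labelled KO, against 1, 2 and 1114 in WT replicates 1, 2 and 3. The fit of all 6 libraries gave it -1.65 on the log2 scale (SE 1.88, adjusted p = 0.869, edgeR), while limma-voom gave 1.63 (adjusted p = 0.866). In the fit of 5 libraries it rose, by 5.77 on the log2 scale (SE 1.04, adjusted p = 0.0482). The ratio of pooled counts per scaled library size was then 56.8 (exact 95% interval 19.2 to 277, counting error only). That call rested on 3 WT counts, and leaving out KO replicate 2, KO replicate 3, WT replicate 1 or WT replicate 2 as well ended it (adjusted p 0.134 to 0.236). Granulosa and cumulus markers were higher in KO replicates 2 and 3 and macrophage markers in WT replicate 3, and their part in Ucp2 was not tested. Mtch1 and Mtch2 are outer membrane relatives. With 6 libraries Mtch1 had a log2 fold change of -0.40 (SE 0.47, adjusted p = 0.872, edgeR). Without WT replicate 3 Mtch1 had -0.14 (SE 0.52, adjusted p = 0.96) and Mtch2 2.08 (SE 0.68, adjusted p = 0.244), neither of them called. The Mtch2 counts by library are not given here. Ucp1 and Ucp3 were at 0 in all 6 libraries.

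Other mitochondrial transporters gave no call in edgeR. Of 24 genes for pyruvate carriers, sideroflexins, ABC transporters, porins and calcium uptake, 23 were tested and 0 called in either fit (medians -0.17 with 6 libraries and 0.04 without WT replicate 3). The 2 with the smallest p in 6 libraries were Abcb10, an inner membrane ABC transporter linked to heme synthesis, at -1.75 (SE 0.60, adjusted p = 0.766, edgeR), and Tmem14c, which takes part in porphyrin import, at -0.43 (SE 0.22, adjusted p = 0.767). Abcb10 had 0.24, 0.12 and 0.16 TPM in the libraries labelled KO, against 0.33, 0.58 and 0.99 TPM in WT. Tmem14c had 369, 369 and 309 TPM, against 517, 320 and 690 TPM in WT. The libraries labelled KO lay below the WT libraries for Abcb10 and overlapped them for Tmem14c. Without WT replicate 3 the smallest p belonged to genes with higher values under the KO label. These were Tspo, an outer membrane protein that binds porphyrins and cholesterol, at 2.51 (SE 0.54, adjusted p = 0.0919, edgeR), and the sideroflexin Sfxn3 at 7.83 (SE 1.86, adjusted p = 0.127). Their counts by library are not given here, so the number of WT counts behind these values is not shown. In the fit without WT replicate 3, 3 of the 23 were higher and 0 lower at an unadjusted p under 0.05 (edgeR). Of all genes 7.68% were higher and 3.89% lower.

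Some counts carry a further limit. Reads shared with other genes leave a fraction in an RSEM gene count, and 7 carriers had one in at least 1 library: Slc25a5, Slc25a11, Slc25a25, Slc25a33, Slc25a35, Slc25a37 and Slc25a46. No source used here gives the strand setting of the counting. In RefSeq the spans of Slc25a3, Slc25a11, Slc25a12, Slc25a25, Slc25a26, Slc25a35, Slc25a39, Slc25a43 and Slc25a44 each overlap 1 other gene. Those of Slc25a16, Slc25a21 and Slc25a53 overlap 2 and those of Slc25a2 and Slc25a37 overlap 3, so reads of those neighbours cannot be told apart from theirs where the exons coincide.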

How the data were processed

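Per the file headers, the authors deposited RSEM tables with an expected count, a TPM, an FPKM and an effective length for each of 55471 Ensembl gene IDs. The submitters' processing notes list RSEM 1.3.1 with STAR 2.6.1c, and also DESeq2 1.42.1, Trim Galore 0.4.5 and the build mm10/GRCm38, but give no roles. No source used here gives the annotation release. Per the labels, the library protocol (single-cell full-length amplification, then a transposase kit) describes blastocysts and is repeated for the oocytes.

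Symbols were found for 55144 IDs. Coordinates and promoter windows were matched by symbol to RefSeq tables of GRCm38.p6. Levels between genes use the deposited TPM. Expected counts were rounded and tested over all genes with edgeR 4.0.16 in R 4.3.3 (quasi-likelihood test, filterByExpr by group, TMM, threshold 0.05). Genotype alone was modelled. The SE was the log2 fold change divided by the root of F, and 95% intervals used its t distribution. The fit was also run on simulated libraries drawn from a common mean profile. None of them stood apart like WT replicate 3, so that run does not cover this feature of the data. Alternatives were RLE or library totals, DESeq2 1.42.0, limma-voom (limma 3.58.1), other filters, log2 of TPM plus 1 or 0.1, the replicate number as a block and each library left out.

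Full values were given for the mitoferrins, the 12 highest carriers, related sets and carriers with an unadjusted p under 0.05. Members and lists were chosen with earlier results of these data known. The counts over the family include every member, but the values of 1 carrier are not reported here or drawn. The sperm small RNA and blastocyst methylation samples were not analysed here.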

Additional observations from a re-analysis of the deposited data

How the results depend on the processing

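Of the 34 tested carriers, none was called under any alternative that gave it a value with 6 libraries. There were 15 alternatives, of which Slc25a10, Slc25a23, Slc25a25 and Slc25a27 had 14, and DESeq2 gave Slc25a25 no adjusted p. Without WT replicate 3, DESeq2 called 1 carrier higher (Slc25a3), and the other alternatives called 0. Leaving out 1 library called 0 carriers in either direction and either fit. The calls over all genes moved more. With 6 libraries, 0 genes were higher and 2 lower in edgeR, DESeq2 gave 81 and 20, log2 of TPM plus 1 gave 7 and 5, and log2 of TPM plus 0.1 gave 8 and 5. Leaving out 1 library gave between 0 and 81 higher (81 without WT replicate 3) and between 1 and 11 lower. Without WT replicate 3, 81 were higher and 11 lower in edgeR, DESeq2 gave 426 and 76, limma-voom 5 and 6, no count filter 534 and 113, the 1 CPM filter 138 higher, and log2 of TPM plus 1 gave 40 higher. Leaving out 1 more library gave between 5 and 131 higher (131 without KO replicate 1, 21 without KO replicate 2, 5 without KO replicate 3 and 12 without WT replicate 2) and between 5 and 12 lower, with 5 without KO replicate 3. With the replicate block that fit had 31 genes higher and 6 lower, and the block called no carrier in either fit. Deviations of same-numbered libraries from their group means had r = 0.10, -0.11 and 0.00. With 3 libraries per group and WT replicate 3 far from the others, these values cannot show or exclude pairing by number. Leaving out 1 library, the Ucp2 log2 fold change lay between -2.24 and 5.77, with 5.77 without WT replicate 3. Where both WT replicates are kept, that call was also lost with library totals, limma-voom, the block and log2 of TPM plus 1 (adjusted p 0.0502 to 0.542). Causes were not tested. Depth limits the mitoferrins: there were at most 20 counts for Slc25a28, and for Slc25a37 at most 1 outside WT replicate 3. The mitoferrins were fitted with no count filter, where no alternative that gave an adjusted p called them. DESeq2 gave Slc25a37 no adjusted p in either fit. Without WT replicate 3 and KO replicate 3, Slc25a37 had no count left and was not fitted. Under log2 of TPM and under the 1 CPM filter they could not be fitted.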
